A study of Drosophila melanogaster with 3 samples.

Results

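Divergent promoters are stretches of DNA from which 2 protein-coding genes are transcribed away from each other. The minus-strand gene starts at the lower coordinate and the plus-strand gene starts a short way above it, so the gap between the 2 starts is upstream of both. The regions described here are those at which the zinc finger protein CG4424 was found near such a pair of starts. A summit, the position of highest signal in a called region, was kept when it lay within 500 bp of a coding transcript start with a divergent partner, and the partner start had to lie 0 to 1000 bp away. Of 6420 summits in the optimal set, 1228 (19.1%) met this rule, on 1224 distinct intervals. They made up 43.4% of the summits within 500 bp of any coding start. The other 1604 were at starts with no divergent coding partner within 1000 bp, and are called below those with no divergent partner. Wider gaps and non-coding partners were not excluded there. Within the optimal set the rule used positions only, and did not use the signal or the sequence. The signal was still limited by the threshold of the optimal set, and the place of the summit by the 500 bp around a start.

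The study was a chromatin immunoprecipitation and sequencing experiment on whole Drosophila melanogaster embryos of both sexes, collected 0 to 16 h after laying. All embryos came from 1 transgenic line that stably expresses CG4424 with green fluorescent protein at its C terminus, and the antibody was against that tag. There is 1 group with 3 biological replicates and no second genotype, age or treatment. Because whole embryos were pooled over these hours, a summit between 2 genes does not say in which cells, or at which hour, the protein was there. Tagged protein was measured, and the untagged protein was not.

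Divergent pairs are common in the compact fly genome, and many hold housekeeping genes, whose products every cell needs. The DNA between the starts usually carries few nucleosomes, and it can carry short core promoter elements and insulator sites for each gene or for both. Among the best known in flies are the palindrome TATCGATA, which is read by the replication-related factor DREF and overlaps the site of the insulator protein BEAF-32, and the TATA box, which positions the transcription machinery.

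The annotation held 2667 pairs of coding genes with a divergent gap of at most 1000 bp, built from 3891 pairs of starts and 5052 genes. An optimal summit lay within 500 bp of either start in 1181 pairs, which is 44.3% of them. The summits were assigned to the narrowest pair of starts around their nearest start, which placed them in 1086 pairs. Of these, 947 pairs held 1 summit, 136 held 2 and 3 held more. Most of the 1228 summits, 1062 (86.5%), were within 500 bp of both starts. At the edge of the rule, the most distant summit kept was 499 bp from its start, at Septin2/Srp72 with a signal of 620, and the nearest one left out was 508 bp away, at RpS19b/CG5854 with a signal of 561.

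The gaps below show what these regions look like as DNA, and were chosen because each is a strong site with its summit between the starts. They are written on the plus strand of dm6 from the base after the minus-strand start to the base before the plus-strand start, so the first base is just upstream of the gene named first and the last base is just upstream of the gene named second. Capitals mark matches on either strand to the 5 elements that differed between these and other bound promoters: TATCGATA and its part CGATA, the TATA box TATAAA, the GAGA element GAGAG and the core AGNNGGCGC of the insulator protein CTCF. Art3, an arginine methyltransferase gene, faces mRpS10, a mitochondrial ribosomal protein gene, over chr3R:15229409-15229664, with the summit at base 122. Tcs5 faces CHMP2B, a gene of the membrane-cutting ESCRT machinery, over chr3L:5139396-5139618, with the summit at base 96. Lon, which encodes a mitochondrial protease, faces PIG-F, a gene of the glycolipid anchor pathway, over chr3L:19612200-19612454, with the summit at base 106.
Art3/mRpS10: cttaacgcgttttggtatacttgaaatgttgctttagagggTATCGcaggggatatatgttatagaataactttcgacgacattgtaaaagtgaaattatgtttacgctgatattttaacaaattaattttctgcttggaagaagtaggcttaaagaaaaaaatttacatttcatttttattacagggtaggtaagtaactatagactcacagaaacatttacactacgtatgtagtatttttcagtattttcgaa
Tcs5/CHMP2B: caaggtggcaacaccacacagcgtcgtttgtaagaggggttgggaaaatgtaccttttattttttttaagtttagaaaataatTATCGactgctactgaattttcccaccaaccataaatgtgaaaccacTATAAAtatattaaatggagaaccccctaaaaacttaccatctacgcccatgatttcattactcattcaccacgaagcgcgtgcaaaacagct
Lon/PIG-F: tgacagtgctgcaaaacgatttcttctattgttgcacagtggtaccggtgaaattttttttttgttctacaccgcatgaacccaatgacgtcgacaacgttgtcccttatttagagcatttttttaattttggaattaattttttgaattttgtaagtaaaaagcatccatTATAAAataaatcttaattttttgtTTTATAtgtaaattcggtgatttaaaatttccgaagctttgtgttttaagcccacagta
In these 3 gaps the summit sits close to the middle, over sequence that is mostly A and T: G and C make up 30.1%, 38.1% and 30.6% of the bases. The nearest capital run to the summit is 78 bp away at Art3/mRpS10, 10 bp away at Tcs5/CHMP2B and 68 bp away at Lon/PIG-F, so no one element is at the summit in all of them.

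The next 3 gaps follow in order of signal, and each holds several matches to the elements. Reps faces l(2)gd1, a gene of endosomal trafficking, over chr2L:11106646-11106942, with the summit at base 197. Mkk4, a kinase gene of the Jun kinase pathway, faces SLIRP2 over chr3R:8650797-8651083, with the summit at base 162. CG13390 faces CG17294 over chr2L:8376798-8377034, with the summit at base 81.
Reps/l(2)gd1: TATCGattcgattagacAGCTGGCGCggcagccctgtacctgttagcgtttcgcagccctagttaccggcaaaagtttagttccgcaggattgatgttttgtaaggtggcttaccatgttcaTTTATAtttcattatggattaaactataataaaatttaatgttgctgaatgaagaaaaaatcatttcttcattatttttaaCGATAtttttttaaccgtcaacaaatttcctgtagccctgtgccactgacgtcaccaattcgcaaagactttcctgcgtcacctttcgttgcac
Mkk4/SLIRP2: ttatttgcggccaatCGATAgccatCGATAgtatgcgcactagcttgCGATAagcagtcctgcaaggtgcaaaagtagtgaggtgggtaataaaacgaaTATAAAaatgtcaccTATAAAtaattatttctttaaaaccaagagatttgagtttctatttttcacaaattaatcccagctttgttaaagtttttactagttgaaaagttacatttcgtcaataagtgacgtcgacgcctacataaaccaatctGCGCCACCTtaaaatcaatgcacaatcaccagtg
CG13390/CG17294: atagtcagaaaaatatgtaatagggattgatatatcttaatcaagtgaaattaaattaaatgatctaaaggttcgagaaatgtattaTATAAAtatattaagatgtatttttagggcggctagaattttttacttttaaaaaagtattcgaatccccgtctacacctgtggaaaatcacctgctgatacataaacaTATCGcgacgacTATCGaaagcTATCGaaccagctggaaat
At Mkk4/SLIRP2 the 3 copies of CGATA cluster near the Mkk4 start, 112 to 144 bp from the summit, and the match to the CTCF core is on the other side. At CG13390/CG17294 the 3 copies lie near the CG17294 start, 118 to 140 bp from the summit. At Reps/l(2)gd1 a copy lies 9 bp from the summit and another 194 bp away.

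The last gaps shown are the one with the full palindrome and the shortest of those printed. Atat, a tubulin acetyltransferase gene, faces Shc, a signalling adaptor gene, over chr3L:9426759-9427009, with the summit at base 127. RpS27, a cytosolic ribosomal protein gene, faces Nup37, a nuclear pore gene, over chr3R:25247515-25247657, with the summit at base 7.
Atat/Shc: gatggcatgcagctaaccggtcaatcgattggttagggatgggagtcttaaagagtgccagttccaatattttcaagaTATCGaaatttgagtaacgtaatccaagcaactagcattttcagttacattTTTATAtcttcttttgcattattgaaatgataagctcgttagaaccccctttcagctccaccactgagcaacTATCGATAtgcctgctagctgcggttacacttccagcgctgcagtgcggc
RpS27/Nup37: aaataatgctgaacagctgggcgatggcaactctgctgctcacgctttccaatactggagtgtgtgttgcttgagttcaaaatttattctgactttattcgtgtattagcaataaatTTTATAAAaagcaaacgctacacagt
At Atat/Shc a TATA match lies 5 bp from the summit and the palindrome 78 bp away. At RpS27/Nup37 the summit is at the RpS27 end of the gap, and the overlapping TATA matches are at the Nup37 end.

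Genes in divergent pairs were occupied about 3 times as often as other coding genes, where occupied means an optimal summit within 500 bp of any start of the gene. Of the 5052 genes in pairs, 2193 were occupied (43.4%; exact 95% interval, 42.0 to 44.8%). Of the 8893 other coding genes, 1276 were occupied (14.3%; 13.6 to 15.1%), and over all 13945 coding genes the share was 24.9%. The odds ratio was 4.58 (Fisher's exact test, two-sided, p = 1.2e-309). In the 6420 strongest regions of each replicate, the share was 45.5, 44.6 and 41.4% of genes in pairs (43.9 ± 2.13%, SD, n = 3) and 14.6, 14.8 and 13.4% of other genes (14.3 ± 0.757%, n = 3). The replicates did not overlap between these classes. Partners over a short gap can share 1 summit, so the genes are not independent units and this p is too small. When each summit was given to the gene of its nearest start alone, the odds ratio fell to 2.15 (Fisher's exact test, two-sided, p = 1.6e-67).

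Occupied pairs were most frequent at gaps of middle width. Of the 542 pairs with a gap above 200 and up to 300 bp, 312 were occupied (57.6%; exact 95% interval, 53.3 to 61.8%), and of the 667 pairs above 300 and up to 500 bp, 351 (52.6%; 48.8 to 56.5%). The share was lower on both sides of this range. It was 35.6% (153 of 430; 31.1 to 40.3%) for gaps up to 100 bp, 34.6% (123 of 356; 29.6 to 39.7%) for gaps above 100 and up to 200 bp, and 36.0% (242 of 672; 32.4 to 39.8%) for gaps above 500 bp. The intervals of the 2 middle classes do not reach those of the other 3. Pairs were searched within 500 bp of either start, so the length searched grows with the gap and is not equal between classes.

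**Figure D1:**
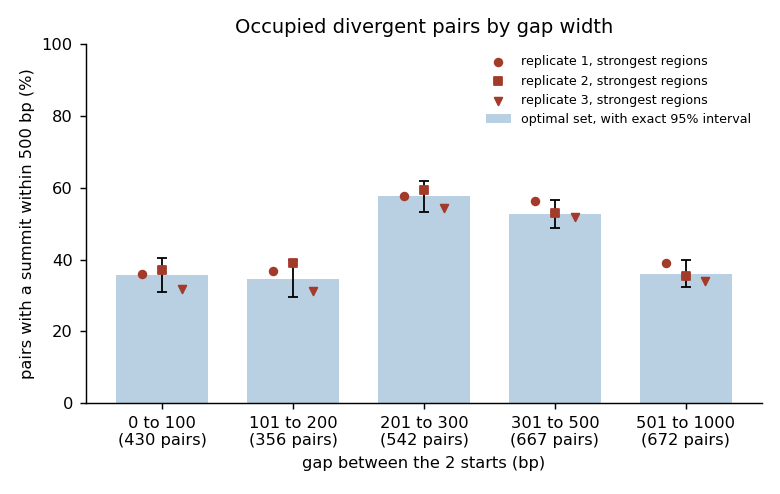
Share of divergent pairs with a summit within 500 bp of either start (y axis, percent), by the gap between the starts (x axis, bp). Bars are the optimal set with exact 95% intervals and points are the strongest regions of each replicate; in all 3 replicates the 2 middle classes, at 51.7 to 59.2%, lie above the other 3, at 31.2 to 39.1%.

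The replicates show the same order. For gaps above 200 and up to 300 bp the replicate values were 57.6, 59.2 and 54.4% (57.1 ± 2.44%, n = 3), against 36.0, 37.2 and 31.9% (35.0 ± 2.81%, n = 3) for gaps up to 100 bp. A single split of the gap at 300 bp did not show this, as it has low and high classes on each side: 588 of 1328 pairs were occupied below it (44.3%) and 593 of 1339 above it (44.3%), with an odds ratio of 1.00 (Fisher's exact test, two-sided, p = 1). With the split at 200 bp the odds ratio was 0.584 (Fisher's exact test, p = 6.9e-10), the narrower pairs being occupied less often. The median gap of the occupied pairs was equal to that of all pairs. At the edge of the rule, 23 of 93 pairs (24.7%) in the widest 100 bp of gap were occupied, and 29 of 97 pairs (29.9%) in the next 100 bp outside it.

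Of the 1486 unoccupied pairs, 788 (53.0%) held a lower-ranked summit, meaning one of the pooled list in a region that overlaps no optimal region. The other 698 held neither. The pooled list is labelled as peaks and background, so a lower-ranked summit need not be a binding site. By chromosome arm, 44.8% of pairs were occupied on 2L, 41.4% on 2R, 47.7% on 3L, 49.2% on 3R and 35.5% on X. On the small chromosome 4 it was 2 of 11 pairs (18.2%). The differences between arms were not tested.

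Optimal summits lay between the starts far more often than lower-ranked summits at the same kind of promoter. The lower-ranked ones come from a list labelled as peaks and background, so part of them may be background, and how many was not tested. Of the 1228 optimal summits, 1022 lay between the 2 starts (83.2%; exact 95% interval, 81.0 to 85.3%), 108 lay below the minus-strand start and 98 above the plus-strand start. Of 1103 lower-ranked summits in the same windows, 657 lay between the starts (59.6%; 56.6 to 62.5%). The odds ratio was 3.37 (Fisher's exact test, two-sided, p = 2.6e-37). In the replicates the share was 83.1, 81.7 and 81.9% for their strongest regions (82.2 ± 0.783%, n = 3) and 63.1, 54.1 and 55.9% for the rest of each list (57.7 ± 4.78%, n = 3), with no overlap. A lower-ranked region cannot overlap an optimal one, which can keep its summit out of a gap that is already occupied. At pairs with no optimal summit, where this limit is absent, 611 of 996 lower-ranked summits lay between the starts (61.3%; 58.2 to 64.4%), and the odds ratio was 3.13 (Fisher's exact test, two-sided, p = 3.5e-31), a comparison added after the data were seen. The replicate lists treated in this way gave 64.1, 56.9 and 58.4% (59.8 ± 3.83%, n = 3). For comparison, the gap made up on average 25.5% of the length searched around each of these pairs. The minus-strand start was the nearer one for 587 of the 1228 summits (47.8%), and for 181 of 414 (43.7%) at gaps above 300 and up to 500 bp, with no test made.

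**Figure D2:**
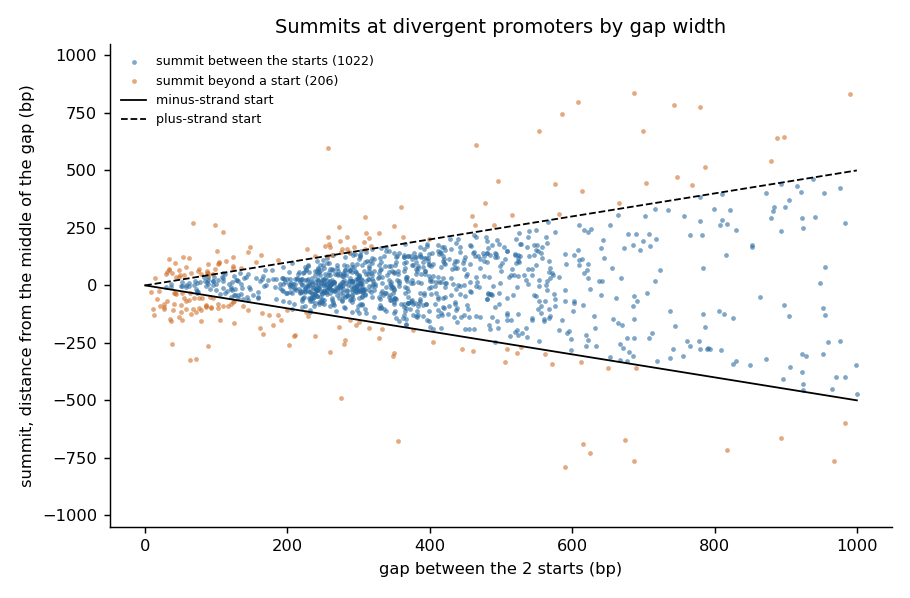
Distance of each summit from the middle of its gap (y axis, bp, positive towards the plus-strand gene) against the width of the gap (x axis, bp). Each point is 1 of 1228 summits, blue for the 1022 between the starts and orange for the 206 beyond one; the lines are the 2 starts, and the blue points crowd around the middle at gaps of 200 to 300 bp and spread out as the gap widens.

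The place of the summit changed with the width of the gap. In gaps up to 100 bp, 32 of 108 summits (29.6%) were between the starts, beside 48 of 149 lower-ranked summits (32.2%). In gaps above 100 and up to 200 bp it was 66.7% beside 53.8%, and in gaps above 200 and up to 300 bp it was 90.6% (289 of 319) beside 62.0%. Wider gaps gave 93.2% beside 66.9% up to 500 bp, and 86.7% beside 64.9% beyond. From the narrowest to the widest class, the gap made up on average 5.86, 12.8, 20.4, 27.8 and 40.1% of the length searched. A wider gap thus leaves more room for a summit between the starts, and the part of this in the change was not tested. The exact 95% intervals of the 2 kinds of summit overlapped in both classes up to 200 bp (21.2 to 39.2% and 24.8 to 40.4%, then 56.6 to 75.7% and 43.8 to 63.7%) and were apart in the 3 wider ones. Over all summits of a class, inside the gap or not, the median distance to the middle of the gap was 41 bp at gaps above 200 and up to 300 bp, 85.5 bp up to 500 bp and 200.5 bp beyond.

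The place of the summits was also measured from a start. For each summit, the distance was taken to the closest start that it lies upstream of, which outside the gap is the start of the partner on the far side. Its median was 109 bp, with quartiles of 66 and 159 bp. From the narrowest to the widest gap class the medians were 89, 64, 95, 115.5 and 162 bp. Those of the lower-ranked summits were close in the first 4 classes, at 98, 73.5, 102 and 134 bp, and 234 bp in the last. Over all gap widths the median of the lower-ranked summits was 147 bp, and their upper quartile was 419.5 bp, beside 159 bp for the optimal summits. More of the lower-ranked summits were in the widest class, 445 of 1103, beside 285 of 1228 optimal ones. Within each class the upper quartile was also higher for the lower-ranked summits, as at gaps up to 100 bp (197 bp beside 128 bp). In the replicates the median distance was 102, 109 and 116 bp for the strongest regions (109 ± 7 bp, n = 3) and 141.5, 168 and 183 bp for the rest of each list (164 ± 21.0 bp, n = 3). At pairs that the strongest regions leave unoccupied, the rest of each list gave 130, 144 and 157 bp (144 ± 13.5 bp, n = 3). The distance was at most 200 bp for 82.5% of the optimal set here, and for 59.0% of the lower-ranked summits. At promoters with no divergent partner, the 1381 summits upstream of their nearest start (86.1% of 1604) were a median of 187 bp from it, with quartiles of 100 and 304 bp. No test was made of these distances, and taking the closer of 2 starts limits how far a summit inside a gap can be.

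**Figure D3:**
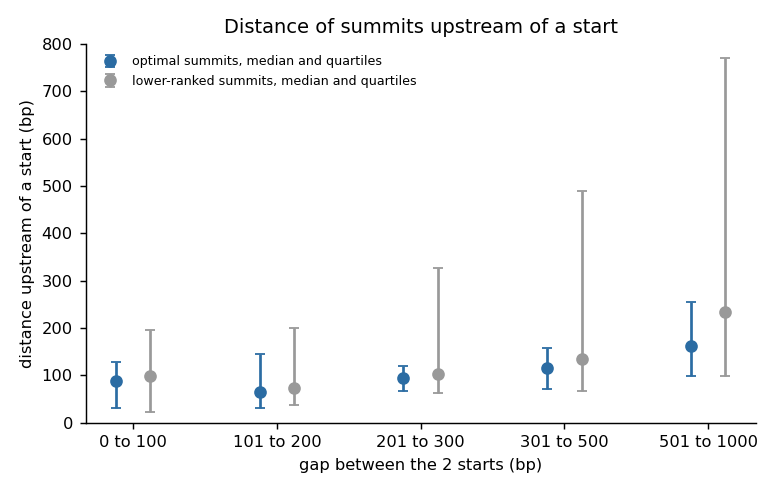
Distance of summits upstream of the closest start they are upstream of (y axis, bp), by the gap between the starts (x axis, bp). Points are medians and bars the quartiles; the medians of the optimal summits run from 64 to 162 bp and their quartiles reach 255 bp at most, while the upper quartiles of the lower-ranked summits reach 771 bp.

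Single narrow pairs show how a summit can miss the gap. At mRpL23/CG9004, with a gap of 50 bp, the summit lay 60 bp inside the transcribed side of mRpL23 and 110 bp upstream of CG9004. At CG8372/CG8360, with a gap of 57 bp, it lay 108 bp upstream of CG8372 and 51 bp beyond the CG8360 start. Pex11ab, a peroxisome gene, faces CG8320 over 33 bp, and the summit lay 132 bp upstream of Pex11ab and 99 bp beyond the CG8320 start. In each case the summit was about 100 bp upstream of one gene and past the start of the other.

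Of the narrowest pairs with an assigned summit, 4 are described here, with gaps of 8 to 16 bp, and in all 4 the summit lay outside the gap. Gaps this narrow are a very small part of the length searched, so a summit outside them says little about place. SerRS, the seryl-tRNA synthetase gene, and CG17260 start 8 bp apart, and their summit was 24 bp past the SerRS start with a signal of 1153. CG2004 and CG1785 start 12 bp apart, with the summit 121 bp past the CG2004 start and a signal of 871. Ctu1 and CG8777 start 14 bp apart, with a summit 37 bp upstream of Ctu1 and a signal of 208, the weakest of these. E(z), which encodes the histone methyltransferase of the Polycomb system, and Cnep1r2 start 16 bp apart, with the summit 50 bp past the E(z) start and a signal of 892.

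The signal is the value the authors' region caller gave each region, on a scale that is not stated, and it was compared only within a list. Over the 1228 summits it ran from 186 to 6109, with a median of 357 and quartiles of 255 and 587. Summits at promoters with no divergent partner had a median of 328, with quartiles of 234 and 565, and a maximum of 12375. Above the median of the whole optimal set, 318, lay 708 of 1228 (57.7%; exact 95% interval, 54.8 to 60.4%) and 833 of 1604 (51.9%; 49.5 to 54.4%). The odds ratio was 1.26 (Fisher's exact test, two-sided, p = 0.00263). The difference in the replicates was 7.53, 4.86 and 3.71 percentage points, or 5.37 ± 1.96 points (n = 3), with the divergent promoters higher in 3 of 3. This difference is small and was lost by the same exact test without replicate 1 (odds ratio 1.10, p = 0.245), replicate 2 (1.10, p = 0.262) or replicate 3 (1.11, p = 0.206). Within the divergent promoters, the median signal was 420 at gaps above 200 and up to 300 bp, 353 up to 500 bp and 322 to 328 in the other 3 classes. Divergent promoters supplied 29 of the strongest 100 summits and 163 of the strongest 642, beside their 19.1% of the whole set.

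The strongest divergent promoter was that of dup, which encodes the fly Cdt1 protein that licenses replication origins, and SRPK, a kinase of splicing factors. Its signal was 6109 in the optimal set and 1427, 2958 and 1714 in replicates 1, 2 and 3. The summit, on 2R at 15380723, lay 1 bp upstream of the SRPK start and 109 bp upstream of the dup start in a gap of 110 bp. It ranked 5 in the optimal set and 5, 5 and 6 in the replicate lists. The gap of 110 bp is that of 1 pair of starts, and both genes have other starts. This summit lies on the transcribed side of another dup start, so it is not upstream of every dup start. A second, weaker summit assigned to these genes lay 57 bp past that other dup start, at a pair of starts with a gap of 461 bp.

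Next came Ugalt, a sugar-nucleotide transporter gene, and eIF2Bbeta, which encodes a subunit of a translation initiation factor. Their signal was 5104 in the optimal set and 1367, 2093 and 1680 in the replicates. Here the gap is wide, 719 bp, and the summit on X at 2703882 lay 30 bp upstream of Ugalt and 689 bp upstream of eIF2Bbeta. Art3/mRpS10, shown above, had a signal of 4293 in the optimal set and 1081, 1898 and 1339 in the replicates. Its summit was nearly central, 122 bp upstream of Art3 and 135 bp upstream of mRpS10.

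Chro encodes a chromatin protein of the bands between compacted chromosome segments, and Ssl1 a subunit of the general factor TFIIH. They start 105 bp apart on 3L, and the summit was 100 bp past the Chro start and 205 bp upstream of Ssl1. Their signal was 4064 in the optimal set and 1067, 1763 and 1263 in the replicates. Tcs5/CHMP2B, also shown above, had 3813 in the optimal set and 1051, 1576 and 1202 in the replicates. Its summit was 96 bp upstream of Tcs5 and 128 bp upstream of CHMP2B. Signal values of different lists are not on a shared scale, but by rank all 5 of these pairs were within the strongest 20 of every list.

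**Figure D4:**
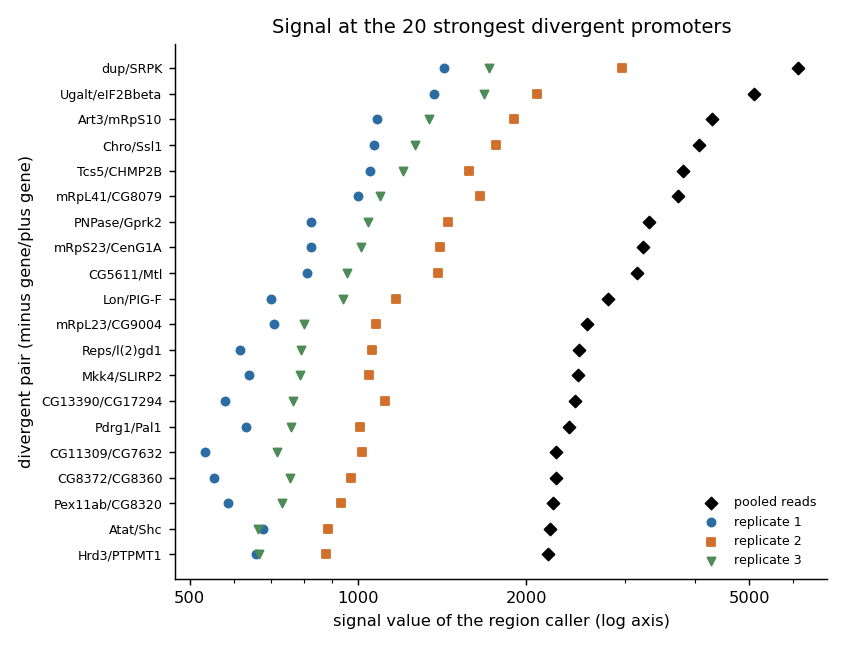
Signal value of the region caller (x axis, log scale) at the 20 strongest divergent promoters (y axis, minus-strand gene first). Diamonds are the optimal set, drawn from the pooled reads, and the other symbols are the 3 replicates. Values are comparable within a list only, and the diamonds run from 2186 at Hrd3/PTPMT1 to 6109 at dup/SRPK.

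The other strong pairs join genes of varied roles. Besides mRpS10, mitochondrial ribosomal protein genes among the 20 strongest pairs were mRpL41, facing CG8079 with a signal of 3730, mRpS23, facing the GTPase activator gene CenG1A with 3236, and mRpL23, facing CG9004 with 2561. PNPase, a mitochondrial RNA-degrading enzyme gene, faces the kinase gene Gprk2 with 3305, and the phosphatase gene PTPMT1 faces Hrd3, a gene of endoplasmic reticulum quality control, with 2186. The pairs CG5611/Mtl, with 3158 at a Rac-like GTPase gene, and Pdrg1/Pal1, with 2384, had gaps of 352 and 346 bp. Each of these pairs ranked in the strongest 100 summits of the optimal set.

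Member regions were found again in the single replicates. The strongest regions of replicates 1, 2 and 3 overlapped 93.5, 93.6 and 90.4% of them (92.5 ± 1.84%, n = 3), beside 89.8, 92.7 and 87.8% of the regions at other promoters (90.1 ± 2.45%, n = 3). All 3 replicates overlapped 1018 of the 1228, none overlapped 5, and 1209 had a region in all 3 full lists.

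Gene groups, matched by symbol, differed in how many of their genes are in divergent pairs and in how many of those were occupied. These are counts with no test, and the share to read them against is the 43.4% of all genes in pairs. Of 92 genes with cytosolic ribosomal protein symbols, 55 are in a pair and 48 of those were occupied (87.3%), while 23 of the other 37 were. Their strongest pair was RpS27/Nup37, with a signal of 1597 in the optimal set and 638, 484 and 484 in the replicates. Of 73 mitochondrial ribosomal protein genes, 58 are in a pair and 35 of those were occupied (60.3%), beside 3 of the other 15. Among 59 genes of vesicle tethering and sorting, 40 are in a pair and 28 of those were occupied (70.0%), with Fur1/Vps33B strongest at 1866. Among 20 autophagy genes, 16 are in a pair and 10 of those were occupied (62.5%), with Xe7/Atg17 strongest at 980.

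Other housekeeping groups had at least 50% of their genes in pairs, beside 36.2% of all coding genes, and 42.3 to 48.8% of those in pairs were occupied. Of 62 genes of the Mediator, RNA polymerase II and the general factors, 43 are in a pair and 21 of those were occupied (48.8%), with elm/MED27 strongest at 1157. The same counts were 28 of 31 and 13 (46.4%) for the spliceosome, 22 of 32 and 10 (45.5%) for the proteasome, and 11 of 16 and 5 (45.5%) for replication licensing. They were 23 of 33 and 10 (43.5%) for aminoacyl-tRNA synthetases, 44 of 85 and 19 (43.2%) for the respiratory chain and ATP synthase, and 26 of 52 and 11 (42.3%) for translation factors. Hat1/Rpn5 with a signal of 871, Sf3b6/Tnpo with 775, ND-ASHI/Fum1 with 894 and Hem/IleRS with 1216 were the strongest pairs of their groups.

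Both partners belong to the same group in 10 pairs, of which 4 join cuticle protein genes, 3 join receptor genes and 1 is Taf10b/Taf10. The other 2 are Cog3/Sec5, which pairs genes of different tethering complexes over 238 bp and had a signal of 453, and Exo84/Vps2, with 564 bp and a signal of 283. Groups used in few cell types were at the other end. Of 179 receptor genes for smell, taste and related senses, 26 are in a pair and 1 of those was occupied, and of 117 cuticle protein genes, 12 are in a pair and 0 were. The strongest summit assigned to a pair with a receptor gene was at Idua/Gr32a, with a signal of 428. It lay 177 bp from the Idua start and 776 bp from the Gr32a start, so it was near Idua and beyond 500 bp of that Gr32a start.

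The sequence within 50 bp of each summit was searched for 16 known promoter and insulator elements, and the divergent promoters were compared with bound promoters that have no divergent partner. Of the 16, 5 differed (31.2%; Fisher's exact test, two-sided, Benjamini-Hochberg adjusted). By this exact test, higher were the palindrome TATCGATA, in 66 of 1228 windows (5.37%) against 49 of 1604 (3.05%; odds ratio 1.80, adjusted p = 0.0167), and its part CGATA, in 26.3% against 20.5% (1.38, adjusted p = 0.00500). Every window with the palindrome also holds CGATA, so these are not separate results. The TATA box sequence TATAAA was also higher, in 23.9% against 19.95% (1.26, exact test, adjusted p = 0.0364). It was counted on either strand and at any place in the window, so a match need not be a working TATA box. The windows also differ in their share of A and T, given below, and its part in this count was not tested. Lower by the exact test were the GAGA element GAGAG, in 7.25% against 10.1% (0.696, adjusted p = 0.0364), and the CTCF core AGNNGGCGC, in 13 windows (1.06%) against 38 (2.37%; 0.441, adjusted p = 0.0364). Windows of the same length but another place, each a coding start and the 100 bp upstream of it, were also searched over all coding starts. They held TATCGATA in 5.204%, CGATA in 25.98%, TATAAA in 18.2%, GAGAG in 15.4% and AGNNGGCGC in 1.22%.

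All 5 differences had the same direction in 3 of 3 replicates. The share with CGATA, for one, was 28.2, 25.99 and 23.96% at divergent promoters (26.04 ± 2.10%, n = 3) and 20.9, 20.4 and 18.2% at other promoters (19.8 ± 1.46%, n = 3), with no overlap. The calls were not steady: 1 element remained past the threshold without replicate 1, 4 without replicate 2 and 3 without replicate 3, and none with gaps of up to 2000 bp, where 3 passed unadjusted by Fisher's exact test. Examples are RpL28/eIF1, the strongest summit with the palindrome, at 1013, and CG3104/RpS21, the strongest with the CTCF core, at 649. Of the 814 summits with CGATA within 200 bp, the nearest match was within 25 bp of the summit in 205, and of the 748 with TATAAA, in 167. It was above 25 and up to 50 bp away, a stretch of similar length, in 127 and 135. Most summits with a match thus had it farther than 25 bp away, but these 25 bp are a small part of the length searched.

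Among all hexamers, each counted with its reverse complement, 2 differed between the same windows (0.0962%), and both consist of A and T. AAATAA was in 40.2% against 32.0% (odds ratio 1.43, adjusted p = 0.0130) and AATTAA in 28.0% against 20.9% (1.47, adjusted p = 0.0137), by Fisher's exact test. Without replicate 1 the number was 1 and without replicate 2 it was 0, where 188 passed unadjusted by Fisher's exact test. The median share of G and C was 31.7% at divergent promoters (quartiles, 25.7 and 39.6%) and 33.7% at other bound promoters (27.7 and 41.6%). It was 41.6% in the windows just upstream of all coding starts, which are not centred on summits.

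Occupied and unoccupied divergent pairs could also be compared with each other, at the middle of the gap, a place that does not depend on the summit. This comparison was added after the data were seen. Of the 16 elements, 5 differed (31.2%; Fisher's exact test, two-sided, Benjamini-Hochberg adjusted). TATAAA was more frequent in occupied gaps, in 316 of 1181 (26.8%) against 290 of 1486 (19.5%; odds ratio 1.51, exact test, adjusted p = 1.9e-04). By the exact test, the other 4 were less frequent: CGATA, in 20.1% against 26.4% (0.701, adjusted p = 7.3e-04), the E-box CAGCTG, in 4.66% against 8.41% (0.532, adjusted p = 7.3e-04), the Polycomb-recruiter core GCCAT, in 11.1% against 15.7% (0.671, adjusted p = 0.00258), and the core GGTCACAC of Motif 1, in 1.69% against 3.70% (0.448, adjusted p = 0.00637). The CGATA call was lost in windows reaching 100 bp to each side (0.960, exact test, adjusted p = 0.702) and in gaps above 200 and up to 500 bp (0.810, exact test, adjusted p = 0.63).

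Occupied gap centres were richer in A and T than unoccupied ones, with quartiles that overlap. The median share of G and C was 28.7% in occupied gap centres (quartiles, 23.8 and 36.6%) and 34.7% in unoccupied ones (27.7 and 43.6%). Of all hexamers, 124 differed (5.96%), and the one of lowest p, ATTAAA, was in 37.6% of occupied and 23.3% of unoccupied gap centres (odds ratio 1.98, adjusted p = 2.4e-12, Fisher's exact test). Gap width differs between these sets, and a narrow gap leaves room in the window for transcribed sequence. In pairs with gaps above 200 and up to 500 bp, where the window lies wholly inside the gap, 663 occupied gap centres had a median of 25.7% and 546 unoccupied ones 28.7%. There 54 hexamers and 2 elements, CAGCTG and GCCAT, passed the threshold, and TATAAA had an odds ratio of 1.38 (exact test, adjusted p = 0.0641).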

How the data were processed

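The labels give 3 biological replicates of 1 group. The deposited files list regions with a signal value and a summit, as made by the authors' region caller, and the optimal set was drawn by the authors from the pooled reads with a threshold on the irreproducible discovery rate, per the file headers and notes. The sources used here do not name the caller or the aligner, nor the scale of the signal. Read depth was not analysed here, so intervals cover counting error only. The summit offset, a number of another kind in the deposited lists, was added to the start, and positions are on dm6, counted from 1. The replicate lists held 22198, 30000 and 29796 regions and the pooled list 29056. The pooled list is labelled as peaks and background, given as input to the irreproducible discovery rate step. Of the pooled regions, 21288 overlapped no optimal region and were called lower-ranked. Replicate values use the 6420 strongest regions of each replicate. The optimal set was drawn from the same replicates, so these values check it only in part.

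Starts were all protein-coding transcript starts of Ensembl release 115, on the same assembly as dm6, and sequence was from RefSeq's dm6 assembly. A pair's gap is that of its narrowest start pair. Fisher's exact test was two-sided, with a threshold of 0.05 and Benjamini-Hochberg adjustment over the elements or hexamers, and intervals are Clopper-Pearson at 95%. Regions and genes are not fully independent units. Replicate values are given as mean and SD of 3 with no test, since the smallest two-sided p that an exact sign-flip test of 3 differences allows is 0.25. Members, gene lists, elements and tests were chosen with earlier results of these data known. Named are the pairs at the 20 strongest summits, the 5 narrowest, and the strongest of each gene list and called element; Septin2/Srp72, RpS19b/CG5854, Cog3/Sec5 and Exo84/Vps2 were added after their values were seen. Of the pairs this rule names, 1 is not reported here. Gaps of 60 to 300 bp of named pairs that hold the summit are shown, up to 8 by signal, on the arms whose sequence is reported and with no annotated untranslated region. Leaving out a replicate means keeping optimal regions that the strongest regions of both others overlap. The scripts ran on scipy 1.17.1, pandas 2.3.3 and numpy 2.4.6 under Python 3.11.15, with figures from matplotlib 3.10.9. The steps were tested on simulated data.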

Additional observations from a re-analysis of the deposited data

How the results depend on the processing

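Of 164 values recomputed under an alternative, 105 kept their direction and side of the threshold or stayed close, 37 lost the threshold, 2 gained it, 19 moved and 1 turned. The higher share of occupied genes in divergent pairs and of summits between the starts kept both under every alternative run, with odds ratios of 2.15 to 4.96 and 2.54 to 3.73. For gap width, by Fisher's exact test, the odds ratio of 1.00 became 0.711 (p = 3.6e-04) with gaps up to 500 bp and 0.584 (p = 6.9e-10) with the split at 200 bp. By the same exact test, the higher signal was lost with gaps up to 2000 bp (odds ratio 1.10, p = 0.227) and without 1 replicate (1.10 to 1.11), and among regions of above-median signal the odds ratio was 0.999 (p = 1); the cause was not tested. That subset held 708 of the 1228 summits, by construction. Elements called at summits, 5 of 16, numbered 2 within 250 bp of a start and 6 within 1000 bp. With gaps up to 500 bp there was 1, and with gaps up to 2000 bp there were 0 (3 unadjusted, Fisher's exact test). They numbered 1 with 1 start per gene, 2 in the subset of above-median signal and 6 in windows reaching 100 bp to each side. Without 1 replicate they numbered 1 to 4. Hexamers called, 2 at first, numbered 24 within 250 bp, 10 within 1000 bp, 7 with gaps up to 500 bp, 1 with 1 start per gene, 0 in the subset of above-median signal (159 unadjusted, Fisher's exact test), 67 in windows reaching 100 bp to each side and 0 to 2 without 1 replicate. At gap centres, 2 elements and 54 hexamers were called in gaps above 200 and up to 500 bp. Requiring a 50% overlap gave a mean replicate overlap of 90.4%. No paired analysis was possible because the series has 1 group, so no groups share replicate numbers; differences between kinds of promoter within each replicate are given beside the results.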
